A study of Mus musculus with 5 samples.

Results

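The beta-globin probe sets of a 4C microarray were examined: a tile over the mouse β-globin locus (MusHbb) and a tile named for the human β-globin locus (HumHBB), DNA that mouse cells do not contain, which gives the cross-species background. Members were taken by the sequence name that the files give each probe, not by signal, and numbered 124 mouse and 210 human probes, 334 in all, of 385000 probes on each array. The other probes covered 7 mouse chromosomes, among them chromosome 7, which carries the β-globin locus, with 57765 probes.

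In 4C, chromatin is cross-linked, cut and ligated, the fragments joined to a chosen viewpoint are amplified, and the products are hybridized to an array, so a bright probe marks DNA that was captured together with the viewpoint. The viewpoint was the promoter of β-major, the main adult β-globin gene. The cells were cultured mouse fetal liver cells of embryonic day 14.5, a tissue made up largely of erythroid cells. Signals of 5 arrays were used. Untreated A and untreated B received no drug. α-Amanitin A and α-amanitin B were cultured for 5 h with α-amanitin, a toxin that binds RNA polymerase II, at a concentration labelled as 100 mg/ml and given in µg/ml in the study's methods. A single array held cells cultured for 3 h with 100 µM DRB, an inhibitor of the kinase that releases paused RNA polymerase II. Controls were cultured for 5 h according to the methods, so the DRB array has no control of the same culture time. The mouse strain is not given in the sources used here, and nothing in the labels says that A and B came from separate litters. The A samples carried Cy3 and the B and DRB samples Cy5, so replicate letter and dye cannot be told apart, and each array also held a second sample that was not used here. Because 4C measures DNA contacts, the cell type could not be checked against marker genes. The labels' comparison is between transcribing and transcription-inhibited cells, and the question for the tiles is how far signal in the viewpoint's own locus stands above foreign DNA in each condition.

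The mouse β-globin locus holds embryonic and adult globin genes and, upstream of them, the locus control region, a cluster of enhancers bound by erythroid transcription factors. In erythroid cells the locus control region loops to the active globin gene. DNA close to a viewpoint on the same chromosome is captured very often whatever the cell's state, so a viewpoint's own locus is the brightest part of a 4C profile.

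The viewpoint region is shown through the promoters of the adult β-globin genes listed by RefSeq for the mouse reference genome (GRCm38.p6), where they carry the symbols Hbb-bs and Hbb-bt. The symbol Hbb-b1, used for β-major in other mouse strains, is named only. Of 9 symbols that begin with Hbb-, 4 had a promoter entry. Each sequence runs for 250 bases up to the transcription start. The Hbb-bs stretch lies at chr7:103827929-103828178 and the Hbb-bt stretch at chr7:103813924-103814173, both on the minus strand and upstream of the gene, outside its exons. Capitals mark CACCC boxes, CCAAT boxes and TATAA boxes on either strand.
Hbb-bs: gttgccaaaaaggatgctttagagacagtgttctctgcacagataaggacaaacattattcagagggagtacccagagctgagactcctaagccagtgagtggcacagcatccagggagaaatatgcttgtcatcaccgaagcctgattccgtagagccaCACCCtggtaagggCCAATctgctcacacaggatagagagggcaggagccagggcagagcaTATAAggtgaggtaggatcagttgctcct
Hbb-bt: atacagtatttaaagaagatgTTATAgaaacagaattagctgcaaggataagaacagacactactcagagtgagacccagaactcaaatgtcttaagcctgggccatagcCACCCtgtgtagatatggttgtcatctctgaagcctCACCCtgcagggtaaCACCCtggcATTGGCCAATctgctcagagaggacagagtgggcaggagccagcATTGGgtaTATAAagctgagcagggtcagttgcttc
CACCC boxes bind erythroid Krüppel-like factor in globin promoters, and CCAAT and TATA boxes are general promoter elements. In Hbb-bs the sense strand held 1 CACCC, 90 bases before the start, 1 CCAAT at 76 and 1 TATAA at 29. In Hbb-bt it held CACCC at 140, 104 and 89 bases before the start, CCAAT at 75 and TATAA at 28, and the antisense strand held 2 further CCAAT and 1 further TATAA. Over the same 250 bases of all 32851 mouse promoters in the RefSeq table, searched on both strands, 52.0% held CACCC, 33.8% held CCAAT and 22.8% held TATAA. In a global alignment, 73.3% of the aligned bases of the 2 promoters were identical (178 identical, 65 mismatched, 14 in gaps). The arrays' probes are 60-mers chosen close to sites of HindIII, the first enzyme of the assay, which cuts AAGCTT. Neither promoter stretch held AAGCTT, which 6.22% of all promoters held, and neither held CATG, the site of the second enzyme NlaIII, which 53.9% held. The letters of the probes themselves were not used here.

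Mouse tile probes were bright on every array and human tile probes dim. Where 5 values follow each other below, they are those of untreated A and B, then α-amanitin A and B, then DRB. The median mouse tile signal was 49521, 54141, 51381, 45808 and 52594 scanner units. The median human tile signal was 368, 318, 460, 356 and 300. No array's median for one tile came near its median for the other.

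The mouse median exceeded the human median 135-fold and 171-fold in the untreated arrays, 112-fold and 129-fold in the α-amanitin arrays and 175-fold in DRB. On the log2 scale the difference was 7.15 ± 0.28 (SD, n = 5 arrays), or 142-fold, and was positive in 5 of 5 arrays (two-sided exact sign-flip permutation test, p = 0.0625, the smallest p that 5 arrays allow). The ordinary mouse genome lay close to the foreign DNA in comparison. The chromosome 7 median was 1.36 to 1.71 times the human tile median, and the median of the other chromosomes was 1.28 to 1.54 times it.

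**Figure D1:**
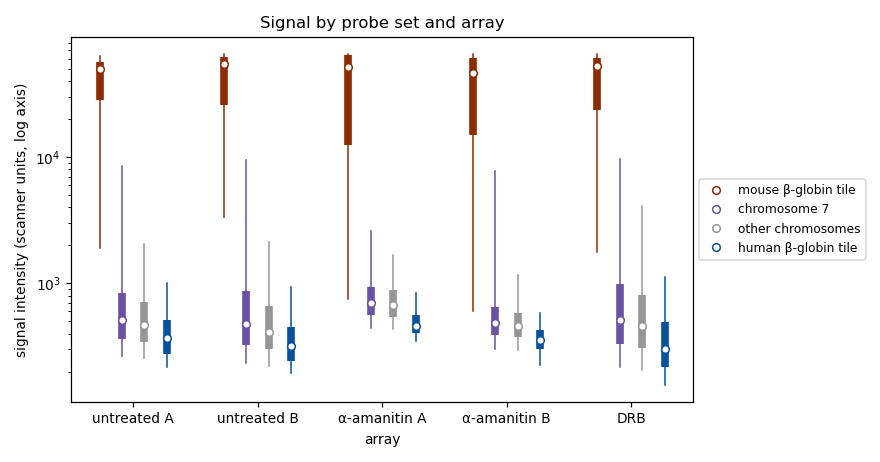
Signal intensity (scanner units, log axis) of 4 probe sets on each of the 5 arrays. Open circles are medians, thick bars the middle 50% of probes and thin lines the 5th to 95th percentile of probes. Mouse tile medians lie between 45808 and 54141 and human tile medians between 300 and 460, with both chromosome sets just above the human tile.

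Nearly every mouse tile probe was above the human background. The 95th percentile of the human tile was 997, 937, 843, 585 and 1113. In the same order, 123, 121, 116, 118 and 118 of the 124 mouse probes exceeded it, against 14.8%, 15.6%, 28.8%, 26% and 17.7% of all probes on those arrays. On all 5 arrays 109 mouse probes (87.9%) did so, against 5.97% of all probes, 8.06% of chromosome 7 and 5.58% of the other chromosomes. Even the single brightest human probe was exceeded by 107 to 114 mouse probes per array.

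The scanner's ceiling limited the bright end. A signal of 65535 is the highest in any file, and 3, 16, 19, 16 and 14 mouse probes had it on the 5 arrays. Of the mouse probes, 89 never reached it, 3 reached it on 4 arrays and 0 on all 5. No human probe reached it. The medians above lie below the ceiling, whereas differences between conditions cannot be read at probes that sit on it.

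The brightest mouse probes by mean log2 signal were those numbered 79, 14, 15, 93 and 51 (the running number in the probe's identifier). Probe 79 stood at 65535 on every untreated and α-amanitin array and at 61372 in DRB. Probe 14 read 61605 and 64356 in the untreated arrays and 65535 on the 3 drug arrays. The lowest of the 5, probe 51, still read 60044 in DRB. No condition stood apart at these probes, whose order is set by values near the ceiling.

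The dimmest mouse probes were 134, 158 and 25. Probe 134 read 877, 527, 2018, 261 and 302. Probe 158 read 1105, 1294, 733, 446 and 852. Probe 25 read 1483, 541, 601, 518 and 3104. Most of these readings were at or near the level of the human tile. Each also had a dim neighbour: probe 24 read 1212, 889, 1611, 441 and 3146, probe 135 read 1131, 3221, 14765, 616 and 655, and probe 160 read 2201, 1478, 844, 481 and 989. On the other side of probe 158, probe 157 read 34172, 26840, 455, 25620 and 35629.

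Signal was not level along the mouse tile. Positions are not given in the files, so probes were ordered by their running number, from 2 to 160, and cut into 4 sets of 31. The median of the first set (numbers 2 to 35) was 50015 in untreated A and 50548 in untreated B. The second set (36 to 74) was the brightest on every array, at 54153, 57881, 60261, 54351 and 58249. The third set (75 to 119) gave 50090 to 54972. The last set (121 to 160) was the dimmest on every array, at 33210 and 34158 in the untreated arrays, 10711 and 26744 in the α-amanitin arrays and 21023 in DRB. Of 155 readings in each set (31 probes on 5 arrays), 8, 0, 0 and 16 fell below the human 95th percentile. Readings below that level therefore lay in the first and last sets alone. The middle sets were not free of dim probes. Probe 91 in the third set, named after its values were seen, read 1843, 1536, 1978, 1114 and 2400.

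Running means over 29 neighbouring probes, the window the study used, gave the same outline. The highest of the 96 windows reached 55171, 58356, 56875, 50018 and 58227 and was centred on probe 71, 71, 71, 65 and 72. The lowest was the last window, centred on probe 145, on every array but DRB, where it was centred on 137, and read 30551, 33509, 20067, 29638 and 26603. The human tile's highest window of 29 read 707, 969, 615, 432 and 1007. The ratio of the highest mouse to the highest human window was 78.0, 60.2, 92.4, 116 and 57.8, with a mean of 80.8 ± 24.1 (SD, n = 5 arrays). Running medians gave 142 instead.

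**Figure D2:**
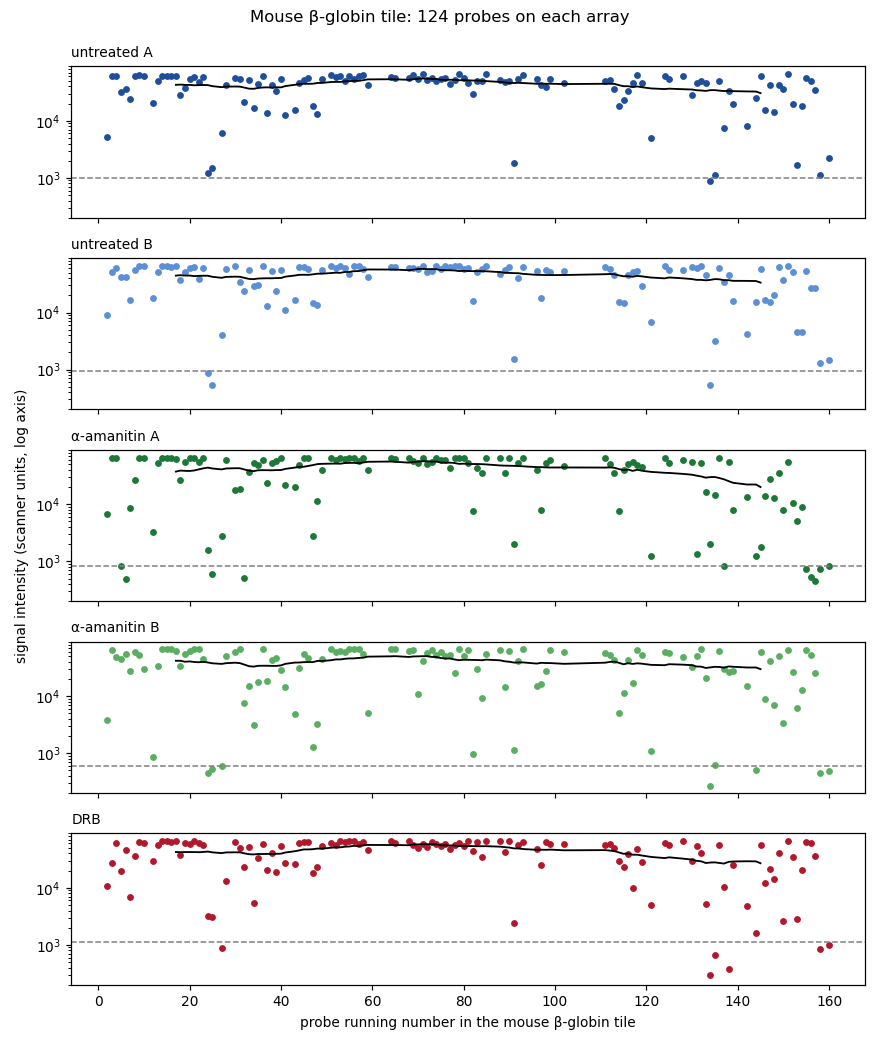
Signal intensity (scanner units, log axis) of each of the 124 mouse tile probes against its running number, 1 panel per array. Black lines are running means over 29 probes and dashed lines the 95th percentile of the human tile on that array (585 to 1113). The running mean peaks near probe 71 and is lowest towards the end of the tile.

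The order of the probes by signal was shared between arrays. Spearman's correlation between arrays over the 124 mouse probes averaged 0.748 over the 10 pairs of arrays (SD 0.051, range 0.643 to 0.812). Over the 210 human probes it averaged 0.584 (SD 0.141, range 0.371 to 0.780). The lowest mouse pair was α-amanitin A with α-amanitin B (0.643) and the highest was untreated A with untreated B (0.812). The pairs share arrays, and their points share probe sequence and base composition, so these values are descriptions. Array pairs with α-amanitin B gave human tile values of 0.371 to 0.471, and the other human pairs 0.644 to 0.780.

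Neighbouring mouse probes resembled each other and neighbouring human probes did not. The correlation of a probe's log2 signal with that of the next probe in the order was 0.246 to 0.354 across arrays in the mouse tile (123 pairs of neighbours). In the human tile it was -0.094 to -0.001 (209 pairs). The mouse likeness did not fall steadily with distance. Averaged over arrays it was 0.303 at 1 place apart, 0.108 at 2, 0.044 at 3, 0.283 at 5 and 0.096 at 10. Probes of both tiles were scattered over the whole array surface, from the lowest to the highest rows and columns.

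The human tile was not uniformly dark. Probe 223 was its brightest, at 6747 and 10165 in the untreated arrays, 2308 and 766 in the α-amanitin arrays and 9338 in DRB. Probe 200 read 1319, 7662, 1164, 789 and 1679, and probe 191 read 3246, 769, 1669, 787 and 2984. Probe 175 read 2210, 3825, 814, 309 and 1880, and probe 388 read 1808, 1891, 865, 470 and 2211. At 4 of these 5, all but probe 191, both α-amanitin arrays were below the other 3. The 5 were picked by a mean to which those 3 arrays contribute most, so the pick itself favours such probes. Probe 214, at rank 6 and named after its values were seen, read 816 and 1092 untreated and 1164 and 1026 in α-amanitin. Among the dimmest, probes 208, 269 and 319, no reading passed 374.

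Bright human probes were fewer on the α-amanitin arrays. Signals above 2 times the array's human median were found at 25 and 28 probes of the untreated arrays, 7 and 8 of the α-amanitin arrays and 33 of DRB. The ratio of the human 95th percentile to the human median was 2.71, 2.95, 1.83, 1.65 and 3.71. The α-amanitin arrays were also narrower over the whole array: the interquartile range of log2 signal on the chromosomes other than 7 was 1.04, 1.14, 0.69, 0.62 and 1.37, and its part in the human tile was not tested. In each of the untreated arrays and DRB, 2 or 3 human probes lay above the 95th percentile of all chromosome probes, with 1 on α-amanitin A and 0 on α-amanitin B. No human probe passed it on every array.

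**Figure D3:**
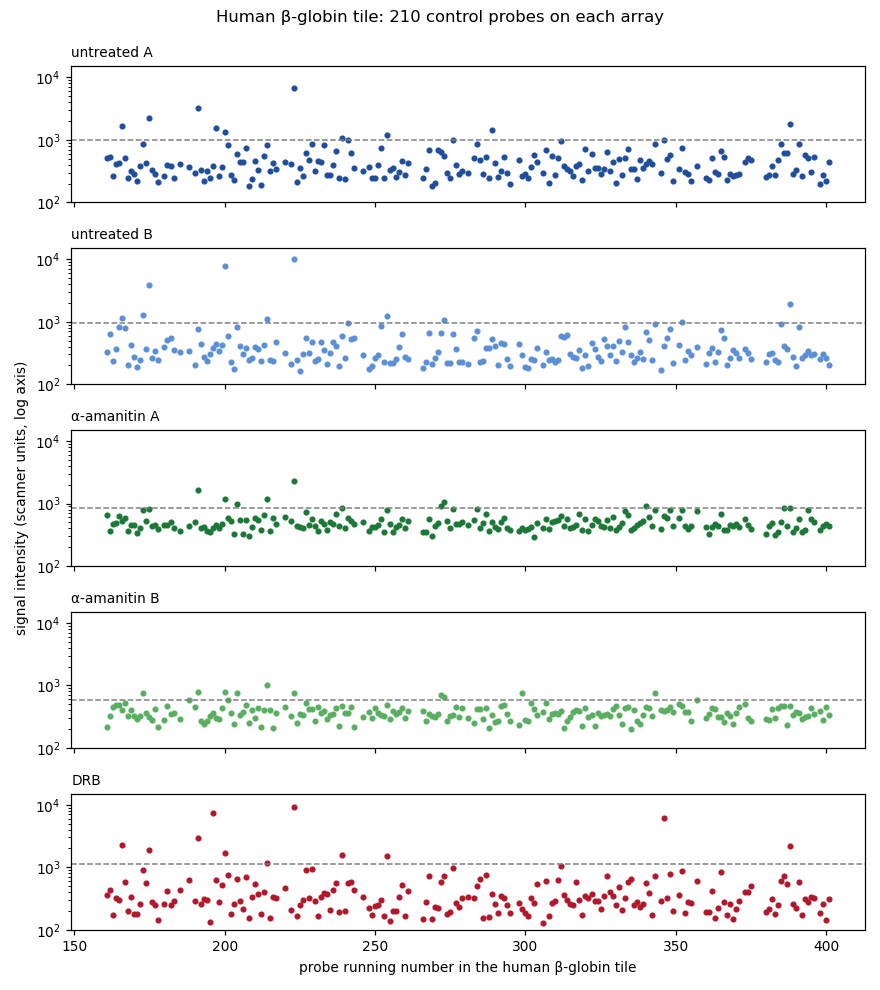
Signal intensity (scanner units, log axis) of each of the 210 human tile probes against its running number, 1 panel per array. Dashed lines are the array's own 95th percentile over these probes. A few probes stand above 1000 in the untreated arrays and DRB, up to 10165 at probe 223, while no probe of α-amanitin B passes 1026.

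The contrast between the tiles was then compared between conditions. Mouse minus human median log2 signal was 7.07 and 7.41 in the untreated arrays, 6.80 and 7.01 in the α-amanitin arrays and 7.45 in DRB. Both α-amanitin values lay below both untreated values, with a mean difference of -0.34 (two-sided exact permutation test, p = 0.333, the smallest that 2 against 2 allows). The untreated arrays themselves differed by 0.34, so the difference was no larger than their spread. It turned positive after quantile normalization (0.0097), after normexp background correction (0.42) and for log2 mean signals in place of medians (0.021), and was -0.66 for mean log2 signals and -0.53 with readings at the ceiling left out. The mouse median alone differed by -0.09 between α-amanitin and untreated arrays and the human median by 0.24 (exact permutation p = 0.667 for each). DRB lay 0.21 above the untreated mean, a single array with no test.

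Single probes were compared between conditions with limma on quantile normalized log2 signal over all 385000 probes. With adjusted p below 0.05 limma called 0 probes in either tile for α-amanitin, against 0% of all probes, and 0 for DRB, against 0% of all probes. At unadjusted p below 0.05, limma found 6 of 124 mouse probes lower in α-amanitin and 0 higher, against 4.28% of all probes lower, 3.51% higher and 7.79% in either direction. The mouse count moved with the scale. On uncorrected signal 13 were lower and 0 higher (2.21% and 10.3% of all probes). Centred on the human tile, 10 were lower and 0 higher (3.55% and 8.71%). After quantile normalization limma found 33 of 210 human probes lower and 0 higher. That split moved too: 6 lower and 16 higher on uncorrected signal, and 21 lower and 9 higher centred on the human tile. For DRB, 6 mouse probes were lower and 0 higher, against 1.12% and 3.23% of all probes (4.35% in either direction), and 3 human probes were higher (196, 346 and 335) and 2 lower (252 and 366). The DRB and α-amanitin comparisons share the untreated arrays.

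After quantile normalization the median log2 difference of the mouse probes was -0.18 for α-amanitin, with 93 of 124 probes lower. Over all probes the median was 0.02, with 185446 of 385000 lower. For DRB the mouse median was -0.26, with 98 lower, and over all probes it was -0.02, with 201785 lower. Quantile normalization sets these values against all other probes of the array. On uncorrected signal the median over all probes rose by 0.33 for α-amanitin, the mouse tile's was -0.12 and the human tile's 0.27. Centred on the human tile, the α-amanitin medians were -0.36 in the mouse tile, 0.02 in the human tile and 0.09 over all probes. After quantile normalization the human tile's median was -0.24. Both tiles thus lay below the median of all probes in α-amanitin on uncorrected signal and after quantile normalization. The mouse tile did so by more than the human tile on uncorrected signal and by less after quantile normalization. Centring on the human tile shifts every probe's difference by the same amount, so it repeats the uncorrected comparison. For DRB the mouse tile's median was 0.02 on uncorrected signal and 0.20 centred on the human tile, against 0.03 and 0.21 over all probes. The sign of the tile's median thus changed with the scale. Here too centring repeats the uncorrected comparison, in which the tile differed little from all probes, unlike after quantile normalization (-0.26 against -0.02). The counts moved as well: on uncorrected signal 57 mouse probes were lower and 67 higher for DRB, and 77 lower and 47 higher for α-amanitin. Probe 93, for example, read 64442 in DRB and 63099 and 62273 untreated. After quantile normalization its log2 signal was 15.88 in DRB and 15.99 and 15.93 untreated, so it counted as lower.

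Both α-amanitin arrays read below both untreated arrays at 45 mouse probes (36.3%), against 20% of all probes, and above both at 11 (8.87%), against 22.5%. Without normalization 28 (22.6%) lay below and 22 (17.7%) above, against 7.64% and 37.2% of all probes. Centred on each array's median, 49 lay below and 4 above (24% and 24.7% of all probes), and centred on the human tile, 46 lay below and 4 above (18.2% and 30.1%). In the human tile 80 probes (38.1%) lay below and 10 (4.76%) above after quantile normalization, 19 (9.05%) below and 78 (37.1%) above without it, 62 (29.5%) and 32 (15.2%) centred on the array's median, and 48 (22.9%) and 50 (23.8%) centred on the human tile. In both tiles and on each of the 4 scales, the share below exceeded that of all probes and the share above fell short of it, by the least in the human tile without normalization. The ceiling enters the mouse tile counts. Quantile normalization set it at 16 and 15.987 in the untreated arrays and at 15.977 and 15.984 in the α-amanitin arrays. Probe 79, at 65535 on every untreated and α-amanitin array, therefore counted as below. How much of the mouse tile's excess comes from the ceiling was not tested.

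After quantile normalization, lower values were found at similar numbers of probes along the mouse tile, while the median difference varied. Of the 31 probes in each successive set, 24, 24, 22 and 23 were lower in α-amanitin and 24, 23, 24 and 27 in DRB. Of all 385000 probes, 185446 were lower in α-amanitin and 201785 in DRB. On uncorrected signal the whole tile had 77 of 124 probes lower in α-amanitin and 57 in DRB, and its sets were not counted on that scale. The median log2 difference for α-amanitin was -0.21, -0.10, -0.19 and -0.39 over the 4 successive sets of 31 probes. For DRB it was -0.20, -0.22, -0.23 and -0.71. The last set, the dimmest on untreated arrays too, thus had the lowest median in both comparisons, which share the untreated arrays.

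The mouse probe with the smallest α-amanitin p was 144, which read 25605 and 15387 in the untreated arrays, 1222 and 513 in the α-amanitin arrays, and 1640 in DRB. Both untreated readings lay far above all 3 drug readings. Its log2 difference was -4.62 (SE 0.96, limma adjusted p = 0.625) for α-amanitin and -4.17 (SE 1.17, limma adjusted p = 0.516) for DRB. On uncorrected signal it was the only mouse probe called for α-amanitin (limma adjusted p = 0.0256), 1 of 124 where 0.891% of all probes were called.

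Probes 158 and 160, the last of the tile, followed. Probe 160 read 2201 and 1478 in the untreated arrays, 844 and 481 in the α-amanitin arrays and 989 in DRB, a difference of -1.57 for α-amanitin (SE 0.52, limma adjusted p = 0.625). Probe 158, given above, had -1.23 (SE 0.40, limma adjusted p = 0.625). Probe 158 lay near the human 95th percentile in every condition. Probe 160 lay near it on the drug arrays but above it on the untreated arrays, where it was 997 and 937. In untreated A probe 160 also passed the human 99th percentile (2174).

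For DRB the smallest p belonged to probe 138, at 33210, 45869, 55690 and 26185 on the other 4 arrays and 384 in DRB. Its log2 difference was -6.67 (SE 1.05, limma adjusted p = 0.186). It was the only mouse probe called on uncorrected signal (limma adjusted p = 0.000166) or after centring on the human tile (limma adjusted p = 0.0465). Those settings called 2.24% and 1.83% of all probes, so 1 of 124 is no more than the share over the array. Probe 150 read 35705 and 37966 in the untreated arrays, 7894 and 3404 in the α-amanitin arrays and 2615 in DRB, so that all 3 drug readings lay below both controls. Probe 133 read 45295 and 45049, 16386 and 20817, and 5253 in that order.

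**Figure D4:**
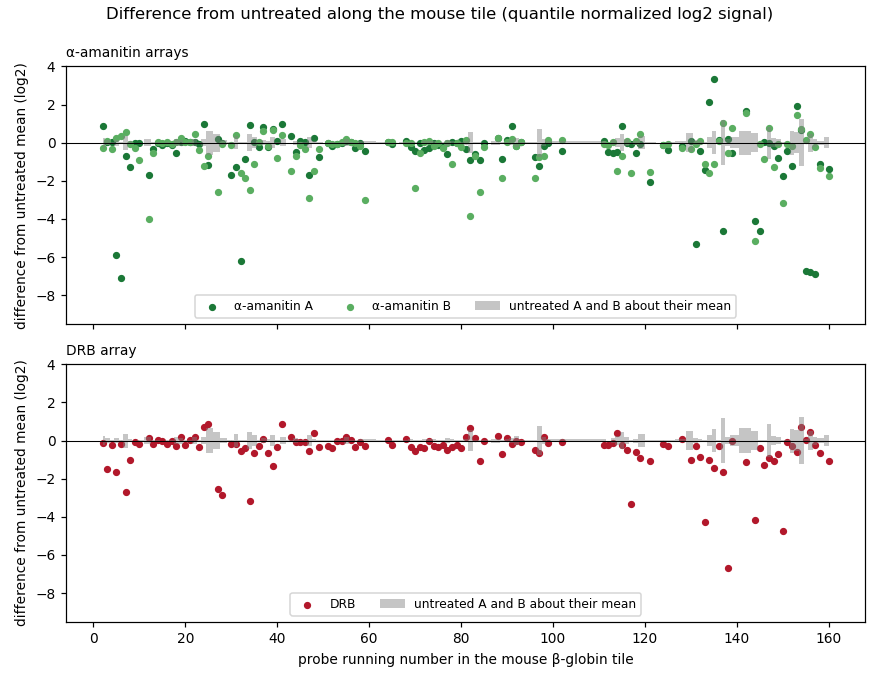
Difference of each drug array from the mean of the untreated arrays (log2 of quantile normalized signal) at the 124 mouse tile probes in running order. The upper panel shows the α-amanitin arrays, the lower panel DRB, and grey bars the spread of untreated A and B about their mean. Most probes lie near 0 and a few lie more than 4 log2 units below it, chiefly beyond probe 130 and, in α-amanitin A, near the start.

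In the human tile the smallest α-amanitin p values belonged to probes 366, 298 and 162. Probe 366 read 538 and 552 in the untreated arrays, 377 and 259 in the α-amanitin arrays and 280 in DRB, a difference of -1.32 for α-amanitin (SE 0.21, limma adjusted p = 0.625). These readings all lie within the body of the human tile. For DRB the smallest p belonged to probe 196, at 384, 378, 403 and 368 on the other arrays and 7467 in DRB, a difference of 3.09 (SE 0.39, limma adjusted p = 0.186). Probe 346 read 998, 408, 627 and 385 on the other arrays and 6031 in DRB. Probe 252 read 737 and 851 in the untreated arrays, 561 and 337 in the α-amanitin arrays and 303 in DRB. On uncorrected signal limma called probes 196 and 346 for DRB, 2 of 210 where 2.24% of all probes were called. Probe 196 was also called with either centring, where 1.21% (on the array's median) and 1.83% (on the human tile) of all probes were called.

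Several mouse probes went dark on a single array. By a rule chosen after the values were seen (below the human 95th percentile on 1 array and above the brightest human probe on the other 4), 6 probes did so in α-amanitin A, namely 6, 32, 137, 155, 156 and 157. In DRB 1 probe did, the probe 138 described above, and in the other 3 arrays 0 did. The share of all probes that meet this rule was not counted, and the list depends on its cut. In α-amanitin A probe 5 missed it at 845, where the human 95th percentile was 843. Probes 131 and 145 read 1332 and 1794 in α-amanitin A and were bright on the other arrays. Probe 6 read 36641, 41288, 491, 55073 and 46609. Probe 155 read 56047, 53966, 741, 65053 and 64629, and probe 156 read 49316, 26489, 537, 52612 and 61365. Probe 157, given above, is their neighbour. The replicate α-amanitin B was bright at all 3 neighbours, so the loss was not shared by both arrays of the condition.

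The spread between arrays was uneven. The ratio of a probe's highest to lowest array had a median of 1.92 in the mouse tile, where 63 probes varied less than 2-fold and 18 more than 10-fold, up to 145-fold. In the human tile the median was 2.06, 94 probes varied less than 2-fold and 4 more than 10-fold, up to 20.3-fold.

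The single-array losses were then looked for at other spots of the array. The mouse tile has a separate name from chromosome 7, whose own probes also pass through the locus, and the files give no positions that would link them. Each probe's log2 deviations from its mean over the 5 arrays were therefore set against every stretch of 124 chromosome 7 probes in the order of their numbers, in the tile's order and in reverse, at 57642 places each. The highest correlation was 0.366, in reverse order, at chromosome 7 numbers 55947 to 56119. The highest elsewhere in reverse order was 0.207 and in the tile's own order 0.225. The place was chosen because it was the highest, so it is a description with no test, and the points share arrays. The highest running means of chromosome 7, 60366 to 63239, were centred on numbers 56046 to 56063, inside that stretch.

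The ends of the tile were placed separately. The last 20 probes in reverse matched best at 55947 to 55967 (correlation 0.773, highest elsewhere 0.489). The first 20 in reverse matched best at 56101 to 56127 (0.820). The next highest for the first 20 were at neighbouring numbers, 0.745 in the tile's own order at 56085 to 56107 and 0.689 in reverse from 56071. Both best places overlap or lie within the stretch found for the whole tile, at the opposite ends that a reversed order gives. They too were chosen because they were the highest, so they are descriptions with no test.

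At probe level the partners of the 3 neighbours 155, 156 and 157 were close. Chromosome 7 probe 55952, opposite mouse probe 155, read 49610, 47378, 683, 64981 and 65535. Probe 55951, opposite 156, read 56740, 30131, 657, 51726 and 51905. Probe 55950, opposite 157, read 31354, 28458, 696, 29492 and 32338. Each of the 3 partners was thus dark in α-amanitin A alone, as its mouse tile probe was. The placement was chosen for the likeness of these same readings, so their likeness is not separate support for it. Other pairs of the whole-tile placement were far apart. In untreated A probe 2 read 5154 and its partner 63253, and probe 121 read 5098 and its partner 59936.

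The partner of probe 144, chromosome 7 probe 55963, read 30776 and 21860 in the untreated arrays, 1726 and 591 in the α-amanitin arrays and 1778 in DRB. All 3 drug readings were below both controls, at a partner whose placement these readings helped to choose. The partner of probe 150, probe 55957, read 51522 and 36035, 10927 and 5644, and 934 in that order. At the other end, the partner of probe 6 changed with the placement. Where the first 20 probes were placed alone it was probe 56122, which read 26657, 42164, 506, 29730 and 37010, and where the whole tile was placed it was probe 56109, which read 56247 in α-amanitin A. Not every partner matched. Of the 7 probes dark on 1 array, 155, 156 and 157 had a dark partner, and probe 6 had one in the placement of the first 20 alone. Probe 32 was opposite probe 56083, which read 60011 in α-amanitin A, and probe 137 opposite probe 55967, which read 8523 there. Probe 158 read 1105 in untreated A and its partner 55948 read 53247, and probe 138, dark in DRB at 384, was opposite probe 55966, which read 7954 there. Whether a partner carries the same sequence or lies on the same restriction fragment was not tested.

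**Figure D5:**
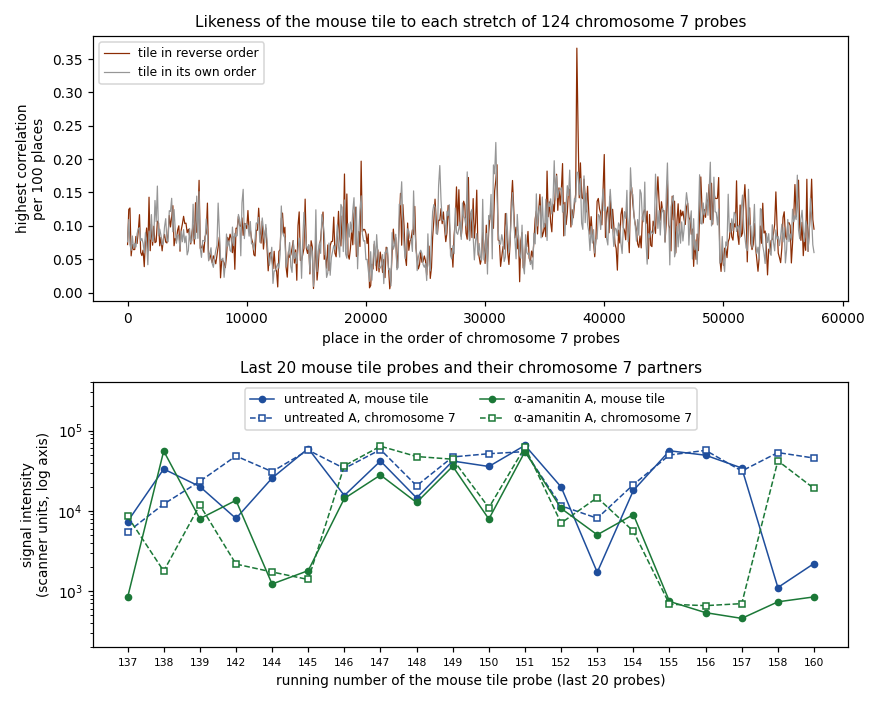
Upper panel, the highest correlation per 100 places between the mouse tile's deviations over arrays and those of each stretch of 124 chromosome 7 probes, for the tile in reverse and in its own order. Lower panel, signal intensity (scanner units, log axis) of the last 20 mouse tile probes (filled circles) and their chromosome 7 partners (open squares) in untreated A and α-amanitin A. A single place reaches 0.366 in reverse order, and probes 155 to 157 and their partners are at 741 or below together in α-amanitin A.

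Chromosome 7 was at least as bright in that stretch as the tile on every array. Its 124 probes had medians of 55176, 58286, 60238, 59575 and 58751, against the mouse tile's 49521, 54141, 51381, 45808 and 52594. Fewer of them fell below the human 95th percentile: 0, 1, 6, 1 and 3 against 1, 3, 8, 6 and 6 in the tile. In both sets α-amanitin A had the most such probes. Both α-amanitin arrays read below both untreated arrays at 35 probes of the stretch (28.2%), against 36.3% of the mouse tile and 20% of all probes after quantile normalization. The other scales gave the stretch a smaller share: without normalization 13 (10.5%) lay below and 28 (22.6%) above, against 7.64% and 37.2% of all probes. Centred on each array's median, 28 (22.6%) lay below, against 24% of all probes, and centred on the human tile 26 (21.0%), against 18.2%. Above both untreated arrays lay 12 (9.68%) after quantile normalization and 4 (3.23%) with either centring. The mouse tile had 11 (8.87%) and 4 (3.23%) on these scales. Over all probes the shares above were 22.5% (quantile normalized), 24.7% (median-centred) and 30.1% (human-centred). The stretch had 12, 25, 38, 25 and 26 probes at the ceiling, more than the tile on every array. Differences cannot be read at such probes, and they enter these counts.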

How the data were processed

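The authors deposited the scanner's signal intensity of each probe, read with NimbleScan 2.3.19 according to the file headers, as 1 channel per array with no background correction or normalization. Arrays have no read depth, and their number (5) limits the precision. Probes of the mouse and human tiles were taken by sequence name. The members and lists were chosen with earlier results of these data known. The files list all positions as 0, and running numbers within the probe identifiers set the order.

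Medians, percentiles and running means of 29 probes used the uncorrected intensity. Differences of tile medians were tested over arrays with exact permutation tests (Python 3.11.15, numpy 2.4.6, scipy 1.17.1, pandas 2.3.3). Single probes were tested with limma 3.58.1 in R 4.3.3 on quantile normalized log2 intensity of the 5 arrays (lmFit, eBayes with trend, Benjamini-Hochberg adjustment over 385000 probes), which was checked on simulated data. With 2, 2 and 1 arrays per group, the DRB array was assumed to vary like the others, and p-values measure only the spread between these arrays. Promoters came from a RefSeq table and were aligned with Biopython 1.88. Figures used matplotlib 3.10.9.

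Probes named are, in each tile, the 5 brightest and 3 dimmest by mean log2 signal, the 3 with the smallest limma p for each drug, and human probes above the 95th percentile of the chromosome probes on all 5 arrays (none), with others marked as chosen after their values were seen or given as neighbours or partners of these. Alternatives varied the scaling, background correction, window, threshold, probe filter, replicate block and arrays left out.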

Additional observations from a re-analysis of the deposited data

How the results depend on the processing

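The difference between the mouse and human tile medians kept its sign under every alternative run, from 6.13 (mean log2 signal) to 8.21 (normexp background correction), and lay between 7.07 and 7.24 when 1 array was left out. The α-amanitin difference in this contrast, -0.34, ranged from -0.51 to -0.17 with 1 array left out and was -0.34 with the replicate block (exact p = 0.5, the smallest that 2 pairs allow). It turned to 0.0097 with quantile normalization, 0.42 with normexp correction and 0.021 with log2 mean signal, and fell to -0.66 with mean log2 signal and -0.53 with readings at the ceiling left out; the cause was not tested.

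The 0 limma calls (adjusted p below 0.05) held with each array left out, without trend and on the brighter probes alone. The replicate block, fitted for α-amanitin alone, also gave 0 in both tiles. No DRB contrast exists without its array. The calls rose to 1 mouse probe (144) for α-amanitin on uncorrected signal, and for DRB to 1 mouse probe (138) on uncorrected or human-centred signal, 1 human probe (196) with either centring and 2 human probes (196 and 346) on uncorrected signal. Over all 385000 probes these settings called 3430 for α-amanitin (uncorrected), and for DRB 4664 (median-centred), 7027 (human-centred) and 8632 (uncorrected). Same-letter arrays did not deviate together (correlation -0.12 over all probes), and a crossed block, chosen after seeing the data, also called 0 in both tiles.

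Mouse probes above the human 95th percentile on all arrays numbered 109, 109 to 115 with 1 array left out, 101 above the human 99th percentile, 94 above the brightest human probe and 101 above the 95th percentile of the other chromosomes. With running means of 5 and 29 probes the mean correlation between arrays in the mouse tile moved from 0.748 to 0.855 and 0.963, and with 29 probes in the human tile from 0.584 to 0.751. With 1 array left out these ranged from 0.725 to 0.773 (highest without α-amanitin A) and from 0.545 to 0.688 (highest without α-amanitin B). The ratio of the highest windows, 80.8, moved to 55.9 with 5 probes and 142 with a running median, and ranged from 72.1 to 86.6 with 1 array left out. Probes with both α-amanitin arrays below both untreated arrays, 45 in the mouse tile, numbered 28 on uncorrected signal, 49 median-centred and 46 human-centred, and in the human tile 80, 19, 62 and 48 (counted after seeing the data).

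The ceiling of 65535 hides differences among the brightest mouse probes. Quantile normalization set it lower on both α-amanitin arrays than on both untreated arrays. A probe at the ceiling on all of them thus counted as below on that scale.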
